A study of Mus musculus with 6 samples.

Results

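Transcripts of 10 genes of endoplasmic reticulum-associated degradation were followed in calf muscle of mice that overexpress integrin alpha7, the muscle's membrane receptor chain for laminin. The genes were Herpud1, Edem1, Syvn1, Sel1l, Derl1, Derl2, Os9, Hyou1, Vcp and Ufd1 (the current symbol of Ufd1l). They were taken by name, as every probe set annotated with one of these symbols alone, which gave 26 probe sets of 45037 that were not controls, and 10 genes of 18193. The set was chosen by pathway around Herpud1, a gene selected on its signal difference between the genotypes on these same arrays, so the differences of all 26 probe sets are given as a description. Gastrocnemius and soleus came from non-fasted female mice aged 5 weeks. One group carried the integrin alpha7 transgene on an SJ6/C57BL6 background, and the other was wild type on the same background; the titles of the wild type arrays also carry the word intronic, which the labels do not explain. The promoter of the transgene, its insertion and the number of founder lines are not stated in the labels. Each group had 3 Affymetrix Mouse430_2 arrays, and each array was hybridised with RNA pooled from 6 animals. This makes 18 animals of each genotype if the pools shared no animal, and differences between single animals were averaged within a pool.

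Endoplasmic reticulum-associated degradation (ERAD) removes proteins that fail to fold in the endoplasmic reticulum. Lectins and mannosidases in the lumen recognise the client, a membrane complex built on the ubiquitin ligase Hrd1 (gene Syvn1) and its adaptor Sel1l moves it across the membrane and ubiquitinates it, and the ATPase p97 (gene Vcp) pulls it into the cytosol for the proteasome. Several of these genes are known targets of the unfolded protein response, the transcriptional programme that follows folding stress in this compartment. In muscle fibres the endoplasmic reticulum is continuous with the sarcoplasmic reticulum that stores calcium.

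The promoters are shown for the 3 members in which one of 4 motifs of stress-responsive transcription was found, since Herpud1 is the member with the largest difference on its brightest probe set and Vcp a member whose bright probe set overlapped between the genotypes. Sequences are from RefSeq on GRCm38.p6, cover 250 bases before the annotated start and 50 after it, and run 5′ to 3′ on the strand of the gene. Capitals mark the motif matches. Herpud1 is at chr8:94386179-94386478 on the plus strand, Syvn1 at chr19:6046326-6046625 on the plus strand and Vcp at chr4:43000458-43000757 on the minus strand.
Herpud1: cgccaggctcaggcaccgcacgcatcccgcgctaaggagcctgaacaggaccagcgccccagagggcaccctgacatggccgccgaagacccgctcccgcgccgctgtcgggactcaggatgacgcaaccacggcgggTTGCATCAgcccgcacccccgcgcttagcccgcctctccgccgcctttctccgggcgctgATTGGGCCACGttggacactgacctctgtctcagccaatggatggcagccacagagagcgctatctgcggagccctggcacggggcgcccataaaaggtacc
Syvn1: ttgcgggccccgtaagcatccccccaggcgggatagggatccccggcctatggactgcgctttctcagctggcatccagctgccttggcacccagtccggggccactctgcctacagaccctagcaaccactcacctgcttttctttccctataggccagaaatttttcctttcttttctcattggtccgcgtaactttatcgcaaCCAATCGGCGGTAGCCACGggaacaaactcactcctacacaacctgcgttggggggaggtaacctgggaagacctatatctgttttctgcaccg
Vcp: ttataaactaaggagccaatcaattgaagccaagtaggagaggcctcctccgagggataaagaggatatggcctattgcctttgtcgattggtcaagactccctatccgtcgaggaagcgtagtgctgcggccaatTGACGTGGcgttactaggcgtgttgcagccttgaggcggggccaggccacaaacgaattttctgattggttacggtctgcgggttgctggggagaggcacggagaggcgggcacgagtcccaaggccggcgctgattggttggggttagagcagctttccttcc

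The motifs searched on both strands were the endoplasmic reticulum stress element ERSE (CCAAT, any 9 bases, CCACG), ERSE-II (ATTGG, any base, CCACG), the core of the unfolded protein response element (TGACGTGG) and an amino acid response element (TTGCATCA). The Herpud1 window held ERSE-II from position -52 to -42 and the amino acid response element from -112 to -105, counted from the start site. The Syvn1 window held ERSE from -44 to -26, and the Vcp window the core of the unfolded protein response element from -114 to -107. These matches lay on the strand of the gene and did not overlap each other. Of 32851 promoter windows of the same length, 0.0365% held ERSE-II, 0.119% ERSE, 0.676% the unfolded protein response core and 0.895% the amino acid response element. Windows were found for 8 of the 10 members, 9 windows in all. The remaining windows, those of Edem1, Sel1l, Derl2, Os9 and Ufd1, held none of these motifs. No window was available for Derl1 and Hyou1, so these genes were not searched. A match of letters is a description of the window and shows no binding.

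The overexpressed gene was high in every transgenic array. Its single probe set, Itga7 1418393_a_at, gave 2498, 2144 and 2072 in transgenic muscle, against 254, 308 and 313 in wild type muscle. Abundant fibre transcripts bore out that the tissue was skeletal muscle, with fast myosin Myh4 at 17928 or more and slow myosin Myh7 at 4560 or more on all 6 arrays. No gene particular to calf muscle was examined. Array medians of the deposited signal were 34.0 to 38.4, and correlations between arrays were 0.971 to 0.981 over the 27022 probe sets brighter on average than a signal of about 21.7. All 26 ERAD probe sets passed this filter.

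Herpud1 encodes a ubiquitin-like protein of the endoplasmic reticulum membrane that joins the Hrd1 complex and is itself a stress-induced gene. Its 2 probe sets had the largest differences of the set among those on which the genotypes did not overlap, both higher in transgenic muscle. Probe set 1448185_at gave 1889, 1912 and 1939 in the transgenic arrays, against 1279, 1017 and 1267 in the wild type arrays. The transgenic pools lay within a narrow band above all wild type pools, and the means were 1914 ± 25.3 in transgenic and 1188 ± 148 in wild type muscle (SD, n = 3 each). The difference was 0.69 ± 0.09 (SE) on the log2(signal + 16) scale, with a 95% interval of 0.50 to 0.88 on that scale, which corresponds to 1.61-fold.

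The second Herpud1 probe set, 1435626_a_at, gave 1615, 1666 and 1727 in the transgenic arrays, against 1229, 790 and 1194 in the wild type arrays. The groups again did not overlap, and the difference of 0.66 ± 0.14 (SE) was close to that of the first probe set. Both probe sets were read from the same arrays. Wild type replicate 2 was the lowest array on both. Without it the difference was 0.58 for 1448185_at and 0.46 for 1435626_a_at. Rounds of hybridisation were grouped here from the recorded clock times. Within the first round, which held replicates 1 and 2 of both genotypes, the differences were 0.73 and 0.72. In the second round, with replicate 3 of each, they were 0.61 and 0.53. Of the 26 probe sets, 1448185_at alone passed an adjusted p of 0.05 in the limma fit over all probe sets, a threshold that 0.122% of the 27022 probe sets passed, and nothing is read from this count because the set was built around Herpud1. It did not pass without the intensity trend, where the difference was also 0.69 and the adjusted p in limma 0.389, the highest over 18 alternatives. The lowest, 0.00287, came from the fluidics module fit, an alternative chosen after seeing the data.

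**Figure D1:**
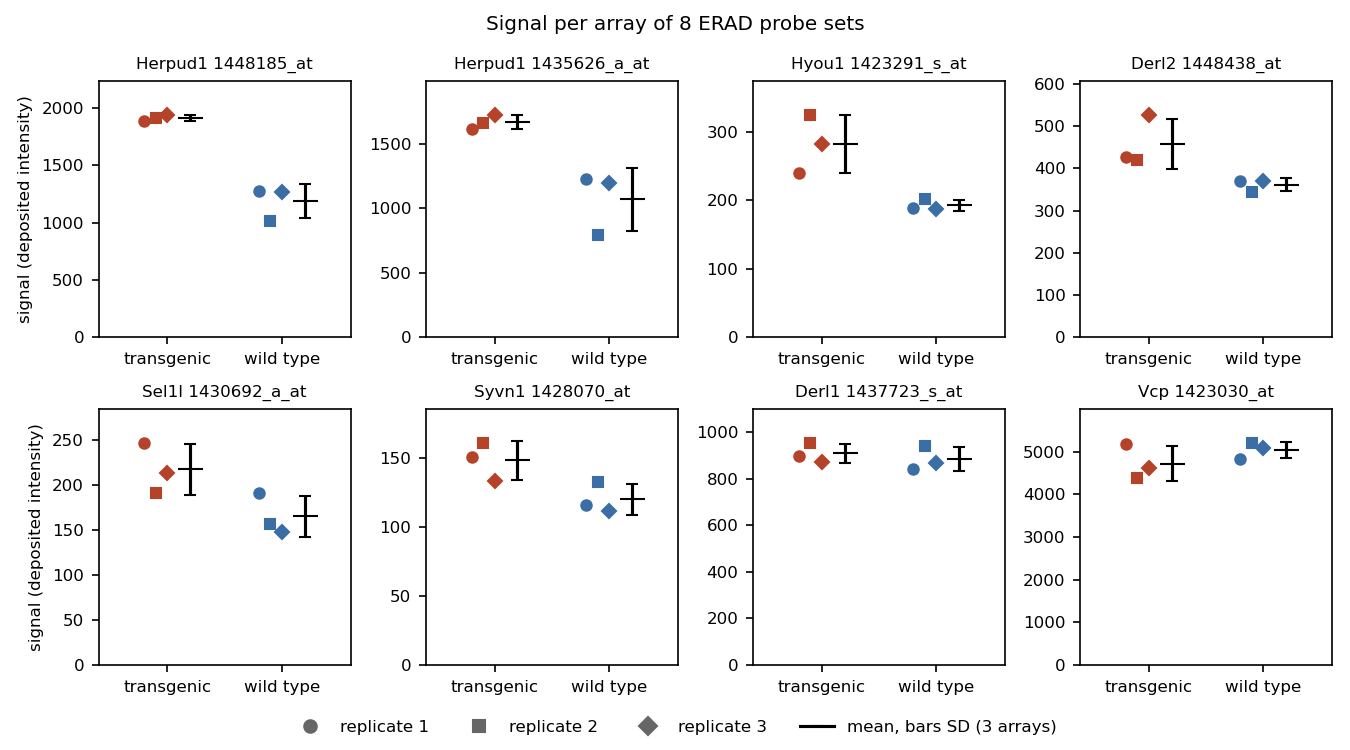
Deposited signal (vertical axes, linear, from 0) on each array for 8 ERAD probe sets, transgenic arrays in red on the left and wild type arrays in blue on the right of each panel, with symbols for the replicate number and black bars for the mean and SD of 3 arrays. Both Herpud1 panels separate the genotypes, with wild type replicate 2 lowest at 1017 and 790, while the Derl1 and Vcp panels overlap. The panels are a selection and do not represent the set. Sel1l and Syvn1 are shown by 1430692_a_at and 1428070_at, which are not their brightest probe sets, and Edem1, Os9 and Ufd1 are not shown. Of all 26 probe sets, 9 had all transgenic arrays higher and 2 all lower.

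Hyou1 encodes a large chaperone of the HSP70 superfamily that exchanges nucleotide on the chaperone BiP in the endoplasmic reticulum. Its brightest probe set, 1423291_s_at, gave 240, 324 and 282 in the transgenic arrays, against 188, 202 and 186 in the wild type arrays. All transgenic pools were above all wild type pools, with more spread in the transgenic group, and the difference was 0.51 ± 0.12 (SE), or 1.42-fold. In Affymetrix naming an ending of _s_at means that the probes are shared by several transcripts, which can belong to different genes. The remaining Hyou1 probe sets were dim and scattered. Probe set 1423290_at gave 47.7, 95.9 and 77.9 in transgenic against 82.6, 85.9 and 23.4 in wild type muscle, a difference of 0.25 ± 0.34 (SE). Probe set 1451913_a_at gave a difference of -0.30 ± 0.28 (SE) from means of 31.4 in transgenic and 40.3 in wild type muscle. The probe sets of Hyou1 thus spanned 0.81 on the log2 scale, the widest spread among the probe sets of any member.

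The recognition genes Edem1 and Os9 showed no shared direction on their brighter probe sets. Edem1 encodes a mannosidase-like protein that takes misfolded glycoproteins out of the folding cycle. Its brighter probe set, 1451218_at, gave 155, 167 and 174 in the transgenic arrays, against 211, 179 and 205 in the wild type arrays. These transgenic values were all below the wild type values, with a difference of -0.24 ± 0.12 (SE) and a 95% interval of -0.50 to 0.02. The dimmer probe set 1424065_at gave 99.9, 124 and 120 in transgenic against 108, 104 and 97.0 in wild type muscle, groups that overlapped, with a difference of 0.13 ± 0.14 (SE). Os9 encodes a lectin that binds trimmed glycans and hands the client to Sel1l. Its probe set 1426974_at gave 259, 229 and 221 in transgenic against 179, 248 and 241 in wild type muscle. The groups overlapped on both Os9 probe sets, and the differences were 0.09 ± 0.13 and 0.14 ± 0.16 (SE).

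The core of the membrane complex, Sel1l and Syvn1, leaned to higher values in transgenic muscle on 6 of 7 probe sets. Syvn1 encodes the ubiquitin ligase Hrd1. Its probe set 1428070_at gave 151, 161 and 133 in the transgenic arrays, against 116, 133 and 111 in the wild type arrays. The lowest transgenic pool was only just above the highest wild type pool, 133.2 against 132.5, and the difference was 0.27 ± 0.13 (SE). The brighter 1443609_s_at gave 200, 243 and 286 in transgenic against 169, 232 and 175 in wild type muscle. These groups overlapped, the difference was 0.32 ± 0.15 (SE), and it was 0.14 in the first hybridisation round, 0.67 in the second and 0.20 without transgenic replicate 3.

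Sel1l, the adaptor that holds Hrd1 in place, was measured by 5 probe sets that did not move alike. The brightest, 1436774_at, gave 437, 432 and 481 in the transgenic arrays, against 408, 401 and 409 in the wild type arrays. Its transgenic pools were all higher, by 0.14 ± 0.09 (SE). Probe set 1430692_a_at gave 247, 191.3 and 213 in transgenic against 190.7, 156 and 147 in wild type muscle, a difference of 0.37 ± 0.14 (SE) in which the lowest transgenic and highest wild type pools nearly met. Probe set 1453559_a_at gave 107, 113 and 88.2 in transgenic against 80.7, 68.0 and 74.0 in wild type muscle, a difference of 0.39 ± 0.15 (SE) without overlap. On 1425188_s_at and 1425187_at the groups overlapped, with differences of 0.13 ± 0.11 and -0.05 ± 0.11 (SE). The Sel1l probe sets therefore ranged from -0.05 to 0.39, and the larger differences came from the dimmer ones.

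Derl1 and Derl2 encode derlins, membrane proteins related to rhomboid proteases that help clients leave the endoplasmic reticulum. Derl2 1448438_at gave 427, 420 and 527 in the transgenic arrays, against 371, 343 and 369 in the wild type arrays. All transgenic pools were higher, by 0.32 ± 0.11 (SE) or 1.25-fold, and transgenic replicate 3 was the highest. Without that array the difference was 0.22. The dimmer Derl2 1435101_at gave 125, 107 and 92.8 in transgenic against 100, 93.0 and 104 in wild type muscle, which overlapped, with a difference of 0.10 ± 0.15 (SE). For Derl1 the brightest probe set, 1437723_s_at, gave 897, 954 and 872 in transgenic against 842, 940 and 866 in wild type muscle. The Derl1 groups overlapped there, with a difference of 0.04 ± 0.08 (SE) and a 95% interval of -0.13 to 0.21. Further Derl1 probe sets of similar brightness gave 0.14 ± 0.08 and 0.13 ± 0.11 (SE), the first of them, 1423082_at, with no overlap between the groups. The dimmest, 1433563_s_at, gave 122, 195 and 184 in transgenic against 144, 91.0 and 124 in wild type muscle, with a difference of 0.43 ± 0.19 (SE), overlapping groups and a difference of 0.27 without wild type replicate 2.

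The extraction step showed no higher values on its bright probe sets. Vcp encodes the ATPase p97, and its bright probe set 1423030_at gave 5180, 4376 and 4618 in the transgenic arrays, against 4837, 5216 and 5090 in the wild type arrays. The groups overlapped, and the difference was -0.10 ± 0.07 (SE) with a 95% interval of -0.25 to 0.05. The dim Vcp 1457588_at gave 55.2, 83.65 and 27.1 in transgenic against 25.4, 39.4 and 15.1 in wild type muscle. Its difference of 0.70 ± 0.32 (SE) was among the least precise of the 26, with overlapping groups and 1 transgenic and 2 wild type values near or below the filter signal of about 21.7. It was 0.38 with an offset of 64 and 0.42 without transgenic replicate 2. Ufd1 encodes a cofactor that, with Npl4, brings ubiquitinated clients to p97. Ufd1 1432367_a_at gave 395, 378 and 380 in transgenic against 407, 423 and 467 in wild type muscle, all transgenic values being lower, by a difference of -0.16 ± 0.09 (SE). Ufd1 1418087_at gave 435, 402 and 414 in transgenic against 445, 422 and 427 in wild type muscle, which overlapped, with a difference of -0.05 ± 0.09 (SE).

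**Figure D2:**
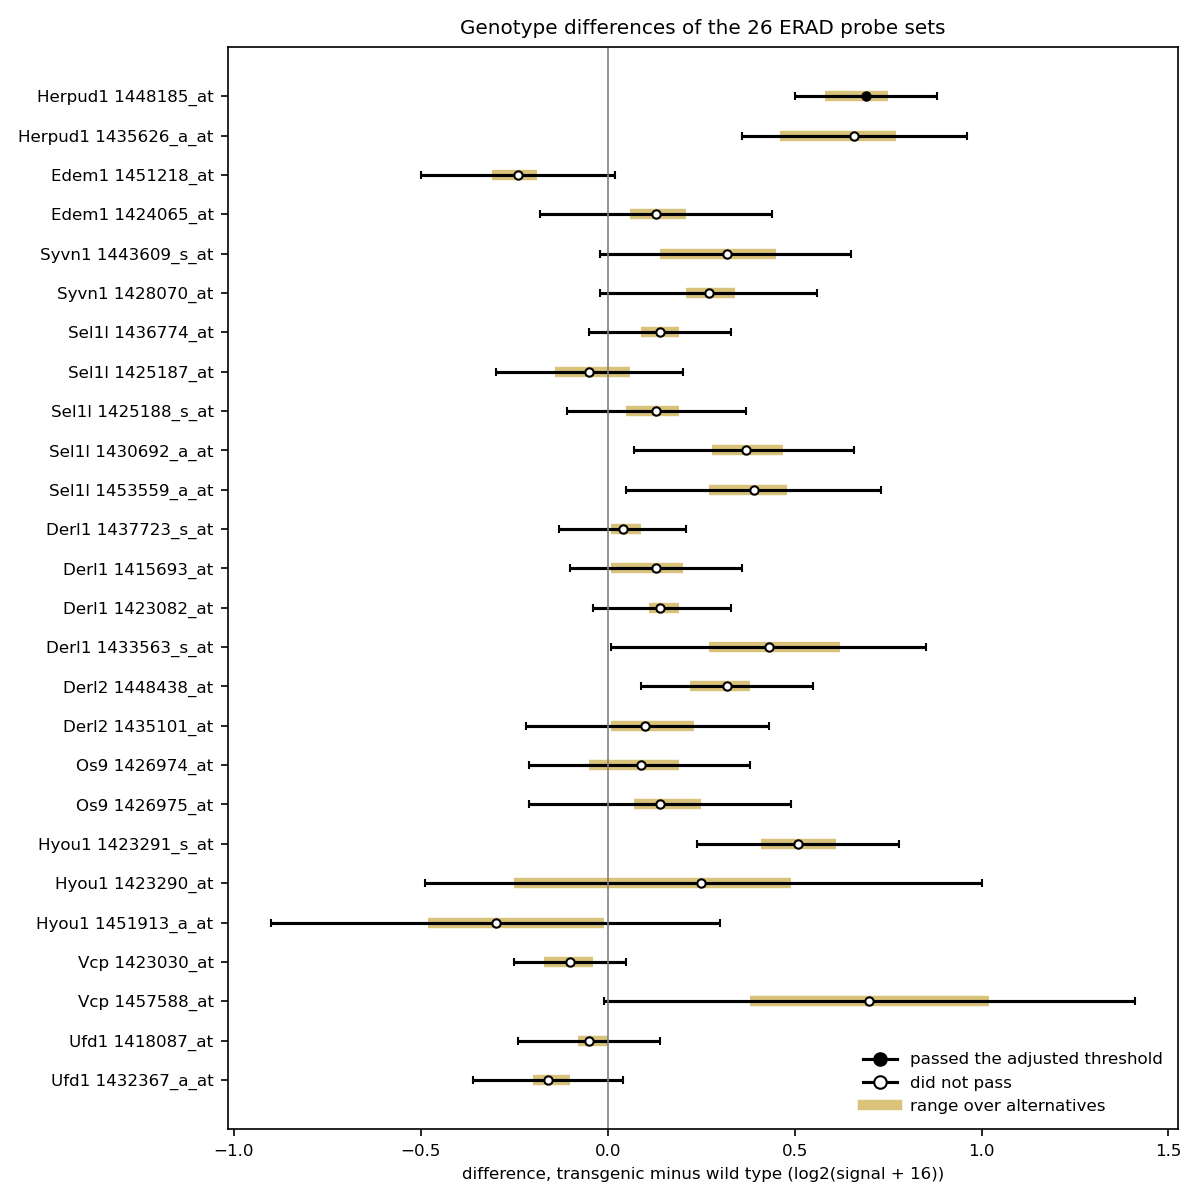
Difference between transgenic and wild type muscle on the log2(signal + 16) scale (horizontal axis) for each of the 26 ERAD probe sets (rows), with 95% intervals as black bars, a filled point for the probe set that passed the adjusted threshold and tan bands for the range over alternative settings. The 2 Herpud1 probe sets lie at 0.69 and 0.66, with bands of 0.58 to 0.75 and 0.46 to 0.77. Edem1, Hyou1, Vcp and Sel1l have probe sets on both sides of 0.

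Across the whole set, 20 of the 26 differences were positive and 6 negative, with a median of 0.14 against -0.012 over all 27022 probe sets, of which 47.4% were positive. The transgenic arrays were all above the wild type arrays for 9 of the 26, where 5.85% of all probe sets did so, and all below for 2, where 7.50% did. These counts include the probe sets of Herpud1, for which the set was chosen, and probe sets of the same gene are not independent of each other. Taking the brightest probe set of each gene, 7 of 10 differences were positive, with a median of 0.11 against -0.004 over all 12942 genes. In the first hybridisation round 20 of the 26 differences were positive with a median of 0.15, and in the second round 18 were, with a median of 0.22. Within wild type, replicate 2 was lowest for 11 of the 26 probe sets, against 8 for replicate 1 and 7 for replicate 3, and highest for 10, against 9 and 7.

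Agreement with the Herpud1 pattern over the 6 arrays was described by Pearson's r with 1448185_at. It was 0.97 for the second Herpud1 probe set, 0.89 for Sel1l 1453559_a_at, 0.86 for Derl1 1423082_at and Derl2 1448438_at, 0.83 for Hyou1 1423291_s_at and Sel1l 1436774_at, and down to -0.73 for Ufd1 1432367_a_at. The genotype difference is part of each of these values, and the arrays share their scaling. Of 12932 other genes, 1.21% had an r above 0.9, which among the members only the second Herpud1 probe set had. The share of other genes at the lower values was not computed, so how common those values are is not known. The 5 most alike were Trip4 (0.997), Gstm5 (0.991), Mrpl47 (0.988), Mien1 (0.985) and Ppp1r3f (0.984). Trip4 gave 249, 249 and 253 in transgenic against 214, 199 and 211 in wild type muscle, so it shared the low wild type replicate 2 with Herpud1, at a smaller difference of 0.25 on the log2(signal + 16) scale.

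Beyond these members, 78 other genes of ERAD were listed by role, of which 75 were matched to probe sets and 72 were bright enough to test. None of the 72 passed an adjusted p of 0.05 in limma on its brightest probe set, where 0.147% of 12942 genes passed. At an unadjusted p under 0.05 there were 7 of the 72, where 8.15% of all genes had such a p. Positive differences numbered 43 and negative ones 29, with a median of 0.05. The transgenic arrays were all higher for 11 of the 72 and all lower for 1, where 6.65% and 7.59% of all genes were. With array weights, and also without transgenic replicate 3, 1 gene passed, the lectin chaperone Canx.

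Among genes of luminal recognition and mannose trimming, 0 of 12 tested passed, 8 had positive differences and the median was 0.12. Canx, which holds glycoproteins during folding, gave 2132, 2133 and 1980 on 1415692_s_at in the transgenic arrays, against 1516, 1661 and 1624 in the wild type arrays. Its transgenic pools were all higher, by 0.38 ± 0.07 (SE) with an adjusted p of 0.0698 in limma, and its 2 dimmer probe sets gave 0.22 and 0.43. Sdf2l1, a stress-inducible protein of the lumen, gave 90.4, 96.6 and 106 in transgenic against 56.0, 50.0 and 62.0 in wild type muscle. The groups were well apart, at 0.66 ± 0.16 (SE) and an adjusted p of 0.242 in limma, and the difference was 0.43 with an offset of 64. The Golgi mannosidase Man1c1 gave 0.37 ± 0.18 (SE) with overlapping groups and an adjusted p of 0.654 in limma, and 0.23 without wild type replicate 2. Man1b1 and Fbxo2 were below the filter.

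Among dislocation and scaffold genes, 0 of 14 tested passed, 9 had positive differences and the median was 0.11. Derl3, the third derlin, gave 55.9, 75.7 and 63.4 in the transgenic arrays, against 17.9, 27.2 and 39.0 in the wild type arrays. The difference was 0.90 ± 0.23 (SE), the largest among the 72 genes on this scale, with an adjusted p of 0.290 in limma. The probe set was dim, with wild type replicate 1 below the filter signal of about 21.7, and the difference was 1.24 with an offset of 1 and 0.49 with an offset of 64. The translocon subunit Sec61b gave 0.22 ± 0.10 (SE), and Fam8a1, a partner of Hrd1, gave 0.14 ± 0.07 (SE) on 1433476_at, with adjusted p in limma of 0.623 and 0.704. Tmem67 was below the filter.

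Among ubiquitin ligases and conjugating enzymes, 0 of 19 tested passed, 13 had positive differences and the median was 0.03. Aup1, which recruits a conjugating enzyme to the ligases, gave 278, 290 and 256 in the transgenic arrays, against 206, 197 and 243 in the wild type arrays. The difference was 0.33 ± 0.11 (SE) without overlap, at an adjusted p of 0.493 in limma. The membrane ligase Rnf5 gave 397, 383 and 408 in transgenic against 282, 373 and 317 in wild type muscle, a difference of 0.29 ± 0.11 (SE) and an adjusted p of 0.561 in limma. The co-chaperone ligase Stub1 gave 0.17 ± 0.09 (SE) with overlapping groups and an adjusted p of 0.684 in limma.

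Among p97 cofactors and proteins that hand clients to the proteasome, 0 of 27 tested passed, with 13 positive and 14 negative differences. Nsfl1c, the p97 cofactor p47, gave 1123, 1053 and 1080 in the transgenic arrays, against 1211, 1146 and 1351 in the wild type arrays. It was the single gene of the 72 with all transgenic arrays lower, by a difference of -0.18 ± 0.08 (SE) and an adjusted p of 0.609 in limma. Ubxn4, a membrane cofactor of p97, gave 0.19 ± 0.10 (SE) on its brightest probe set and 0.03 and 0.04 on dimmer ones, and Ubqln4, a shuttle to the proteasome, gave 0.21 ± 0.11 (SE) on its brightest and 0.03 on its other one. Their adjusted p on the brightest probe set was 0.682 and 0.696 in limma.

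**Figure D3:**
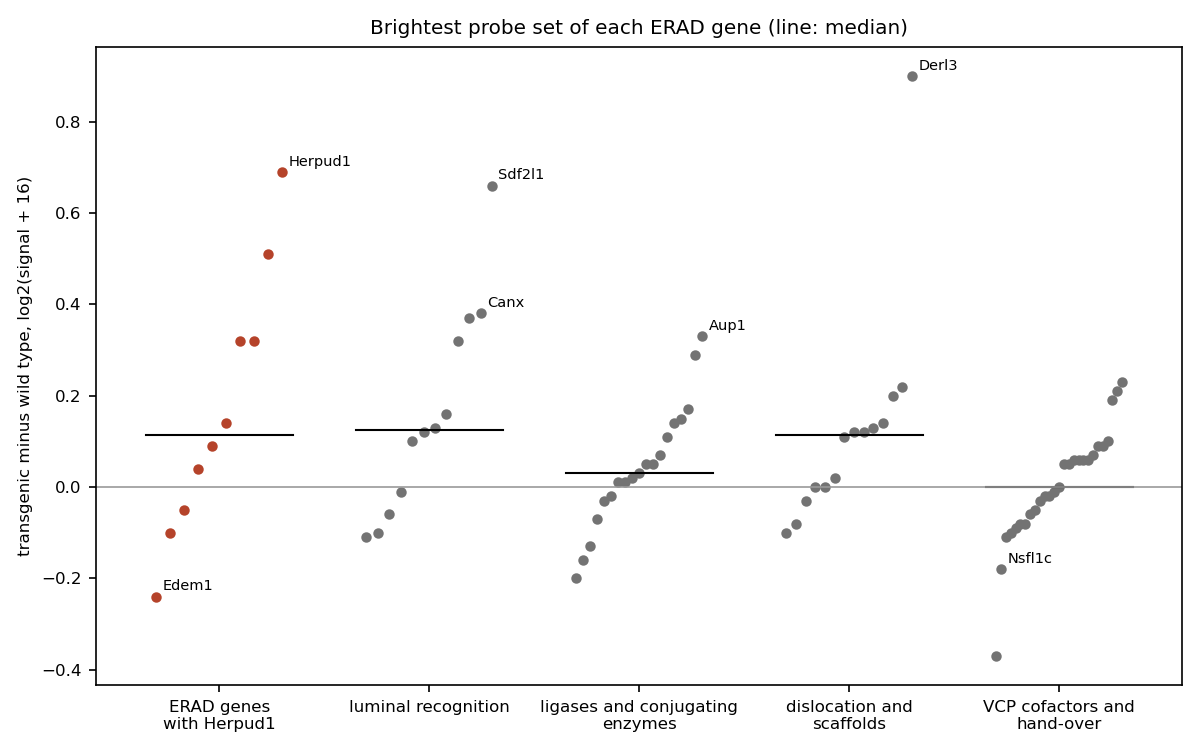
Difference between transgenic and wild type muscle on the log2(signal + 16) scale (vertical axis) for the brightest probe set of each gene, with the 10 ERAD genes around Herpud1 in red and the 72 other ERAD genes in grey by role, and a line at the median of each group. The median is 0.11 for the genes around Herpud1, and Derl3 at 0.90, Sdf2l1 at 0.66 and Canx at 0.38 stand at the upper end of the other groups.

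In pooled muscle RNA, fewer cells of a type and less RNA per cell cannot be told apart, so markers of the cells that such muscle can hold were summed on each array. Antibody-secreting cells carry much ERAD machinery. The 6 B and plasma cell markers summed to 605 to 656 in transgenic and 536 to 583 in wild type muscle, with 5 of 6 higher on average in transgenic muscle, all 6 brighter than the filter and none past the threshold. The plasma cell gene Jchain went the other way, with means of 87.2 in transgenic and 98.7 in wild type muscle, and Sdc1 had the largest difference, with means of 126 in transgenic and 93.7 in wild type muscle and overlapping groups. Endothelial markers summed to 1147 to 1250 in transgenic and 1321 to 1439 in wild type muscle, with 0 of 5 higher. Macrophage markers summed to 2613 to 2816 in transgenic and 2917 to 3148 in wild type muscle, with 1 of 5 higher. Muscle fibre markers summed to 120835 to 129971 in transgenic and 134393 to 137356 in wild type muscle, with 2 of 8 higher, and most of these genes lie close to the top of the signal range. The sums of the endothelial, macrophage and muscle fibre markers were thus lower, and that of the B and plasma cell markers higher, in every transgenic array than in any wild type array. A sum is weighted to its brightest genes. Taken singly, each B and plasma cell marker overlapped between the genotypes, and so did every macrophage marker but Csf1r. All transgenic arrays were lower for Tek, Kdr and Emcn in endothelium and for Mylpf, Tnnt3, Myh4 and Mb in fibres, and the other markers of these lists overlapped. Sums of the fibroblast, smooth muscle, T cell, adipocyte and Schwann cell markers overlapped between the genotypes, and no tested marker passed the threshold. Singly, all transgenic arrays were lower for fibroblast Dcn, by a log2(signal + 16) difference of -0.31. They were all higher for Ucp1 (0.37), Rgs5 (0.12) and Cd8a (0.26), and the remaining markers of these lists overlapped. Cd3e and Cd4 were below the filter, and only 3 of 5 adipocyte and 2 of 4 Schwann cell markers were matched. The part of these shifts in the Herpud1 difference was not tested.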

How the data were processed

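Affymetrix Mouse430_2 arrays, 6 in all, were analysed. The authors deposited 1 linear intensity for each probe set, and the submitters' processing notes name GCOS 1.1.1. How GCOS computed and scaled it was not stated. With 2% trimmed at either end, the deposited intensity averaged 150.0 on each array, so that a change common to most transcripts is scaled away. The deposited run files, of other content than expression, gave a hybridisation time and a fluidics module for each array. The 2 rounds, each with both genotypes, were made here by splitting the arrays at gaps in the clock times. The files name no rounds, and the dates were not used. There were 4 fluidics modules, each with 1 genotype.

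The table had 45101 rows, of which the 64 controls were dropped. Values were tested as log2(signal + 16), which understates changes of dim transcripts. Probe sets with a mean above the 40th percentile were kept. limma 3.58.1 in R 4.3.3 fitted genotype with an intensity trend and no covariates, and p-values were adjusted by Benjamini-Hochberg across the 27022 kept probe sets. The fit was tested on simulated data. The number of arrays limits the precision, and p-values measure the spread between pools.

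Names came from the platform annotation, updated through gene identifiers to RefSeq on GRCm38.p6. A single symbol was given for 34945 probe sets (34741 of them found in RefSeq), several for 932 and no symbol for 9160. The members and lists were chosen with earlier results of these data known. Named are all member probe sets, the 3 other ERAD genes of each role with the smallest p, and the 5 genes most alike to Herpud1 1448185_at. Of the 78 listed genes, 3 were not matched and not analysed here.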

Additional observations from a re-analysis of the deposited data

How the results depend on the processing

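Over 18 alternatives of offset, normalization, filter, variance model, weights, block and left-out array, 22 of the 26 ERAD probe sets kept the sign of their difference wherever they were tested, and Sel1l 1425187_at, Os9 1426974_at, Hyou1 1423290_at and Ufd1 1418087_at did not. Herpud1 1448185_at ran from 0.58 without wild type replicate 2 to 0.75 without wild type replicate 1. It passed in 17 of 18, a count that includes the fluidics module fit below. Nothing is read from this count, because Herpud1 was selected on its difference on these same arrays. Without the intensity trend 0 members and 1 probe set in all passed. Calls over all probe sets numbered 33, and 50 with equal array medians, 17 with no filter and 18 to 39 with an array left out (18 without wild type replicate 2, 19 without wild type replicate 1). Of the other ERAD genes 1, Canx, passed with array weights, and 0 to 1 with an array left out. Deviations of same-numbered arrays from their group means correlated at 0.003, 0.06 and 0.049, so the numbers were not taken to pair the arrays, and with the replicate block 36 probe sets, 1 member and 0 other ERAD genes passed. The fluidics module as a random block was an alternative chosen after seeing the data. There 297 probe sets, 3 members (both Herpud1 probe sets and Hyou1 1423291_s_at) and 3 other ERAD genes (Canx, Sdf2l1 and Derl3) passed. The correlation within modules was -0.44. Each module held arrays of 1 genotype, so module and genotype cannot be told apart, and nothing is read from the added passes. Round 2 of hybridisation alone held 1 array of each genotype and was not fitted. The mean of the probe sets of a gene called 0 of the other ERAD genes.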
